A study of Mus musculus with 12 samples.

Results

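Kinesins and dyneins are the motors that carry cargo along microtubules, and the 71 genes of these motor families in the count table of mouse sciatic dorsal root ganglia (DRG) were described here. The rule took them by their names, as every kinesin heavy chain (Kif, Kifc), kinesin light chain (Klc), dynein subunit (Dync, Dynl) and numbered dynactin subunit (Dctn) among 44345 gene names. By role they fell into 18 axonal and cargo kinesins, 4 kinesin light chains, 5 subunits of cytoplasmic dynein 1, 9 dynein light chains, 6 dynactin subunits, 14 mitotic kinesins, 8 ciliary motors and 7 others, 4 of them pseudogenes. A filter on low counts left 60 of the 71 for testing.

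A sensory neuron of the DRG sends one very long axon to the skin or muscle and another into the spinal cord, and its cell body makes nearly all the protein that both need. Most kinesins walk outward along the axon with vesicles, mitochondria and channels, and cytoplasmic dynein, bound to its cofactor dynactin, walks back with endosomes and signals from the injured nerve. A further group of kinesins builds the mitotic spindle and separates chromosomes, which mature neurons no longer do. Another small group works inside cilia.

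C57BL/6 mice, 5 to 8 weeks old, lived for 10 days in standard housing (SH) or in an enriched environment (EE), which adds space, company, a running wheel and changing objects. They then had sham surgery, in which the sciatic nerve was exposed, or sciatic nerve axotomy (SNA), its complete transection. L4-L6 DRG were taken 24 hours later and their mRNA was sequenced in 3 samples each of SH SNA, EE + SNA and the sham-operated controls of both housings, SH Sham and EE Sham. Every sample pooled the ganglia of 2 mice, so a group stands for 6 mice and no sample shows a single animal. According to the paper, EE Sham came from a dataset it had described earlier, and the labels give no date of preparation for any group.

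Reads on genes ranged from 11343579 to 22871460 per sample with a median of 12769394, and the motor genes held 1.34% to 1.46% of them. Atf3, an injury-induced transcription factor used to check the surgery labels, lay between 110 and 168 CPM (read counts scaled to the library size) in the 6 Sham samples and between 454 and 549 CPM in the 6 SNA samples. Sensory neuron markers were present throughout, with a summed level of 8033 to 9585 CPM, and 5 of 8 were lower after SNA at an adjusted p-value of 0.05, which 22.4% of all genes passed. Markers called higher were 6 of 6 of Schwann cells, 2 of 4 each of satellite glia and fibroblasts, 2 of 5 of macrophages and 1 each of neutrophils, lymphocytes, red blood cells and endothelium. In bulk tissue, fewer cells of a type and less RNA per cell cannot be told apart. SH SNA sample 2 stood apart by skeletal muscle markers (592 CPM in sum, at most 108 CPM elsewhere) and EE + SNA sample 3 by neutrophil markers (703 CPM, at most 302 CPM elsewhere).

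The most abundant motor RNAs of the ganglion were kinesin, dynein and dynactin subunits outside the mitotic and ciliary roles. The make-up of most of their families was alike in the 4 groups. Levels between genes are given as FPKM, which are divided by gene length, as the mean ± SD over all 12 samples. Klc1, the light chain through which conventional kinesin holds its cargo, was highest at 328 ± 15.9 FPKM, followed by Dynll2 at 296 ± 18.7 and Dynlt3 at 239 ± 15.4, both dynein light chains. Dctn2, the dynactin subunit dynamitin, stood at 215 ± 11.0 FPKM. The ranges of Klc1 (306 to 357 FPKM) and Dynll2 (269 to 326) overlapped, as did those of Dynlt3 (220 to 270) and Dctn2 (194 to 227), so the order of these neighbours does not exceed their spread.

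Among heavy chains, Kif5a, a neuronal form of conventional kinesin, led with 186 ± 12.8 FPKM, ahead of Kif21a (142 ± 7.31), a kinesin that restrains microtubule growth, Kif1a (127 ± 8.40), which carries synaptic vesicle precursors and dense-core vesicles, and Kif5c (124 ± 3.28). Ranges of Kif21a, Kif1a and Kif5c overlapped. Kif5b, the form found in most cell types, stood at 94.4 ± 4.69 FPKM and Kif1b, which moves mitochondria and synaptic vesicle precursors, at 80.6 ± 3.88 FPKM. The heavy chain of cytoplasmic dynein, Dync1h1, stood at 47.1 ± 5.22 FPKM, and the kinesin-2 subunits Kif3c and Kif3a at 52.6 ± 2.05 and 50.5 ± 3.44 FPKM. At the other end of the axonal group, Kif21b and Kif17 were at 1.26 ± 0.235 and 0.425 ± 0.108 FPKM.

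**Figure D1:**
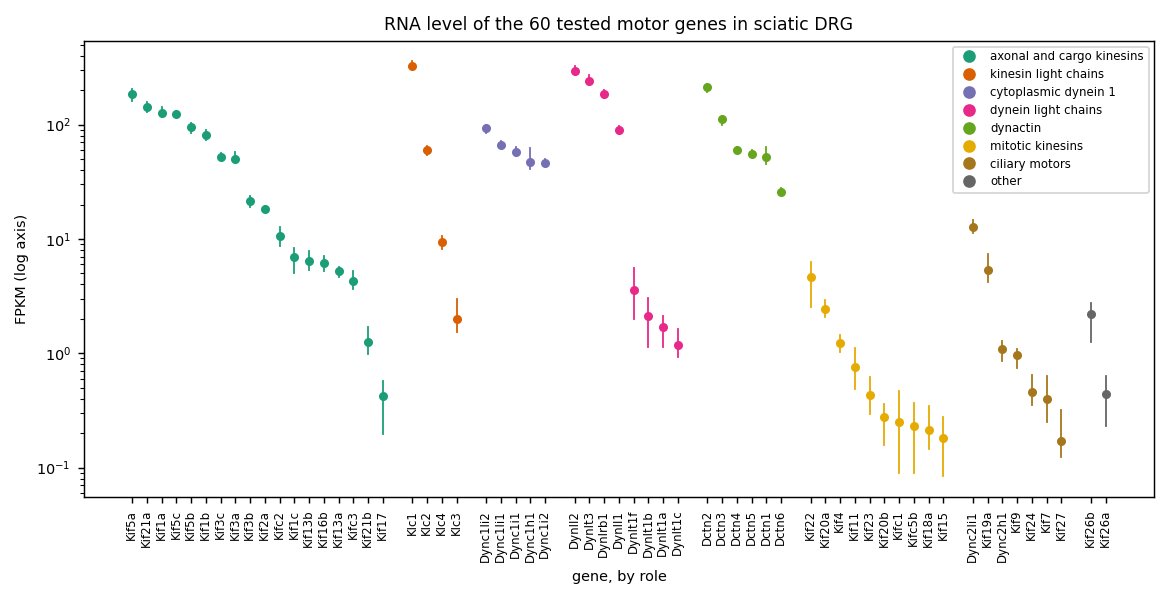
RNA level of the 60 tested motor genes, in FPKM on a log axis, sorted by role. Points are means and lines run from the lowest to the highest of the 12 samples. Klc1 is highest at 328 FPKM, and 10 of the 10 mitotic kinesins lie below 7 FPKM.

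Several motors are made of interchangeable subunits, and within most such families the shares were steady. Of the summed FPKM of Kif5a, Kif5b and Kif5c, Kif5a took 46.6% ± 1.72 in SH Sham, 45.2% ± 3.02 in SH SNA, 46.2% ± 0.623 in EE Sham and 45.5% ± 0.689 in EE + SNA (SD, n = 3), so the groups overlapped. Klc1 made up 81.2% to 83.5% of the 4 light chains and Kif21a 98.8% to 99.3% of the Kif21 pair in every sample. The neuron-enriched intermediate chain Dync1i1 held 53.7% to 58.1% of the 2 intermediate chains.

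Mitotic kinesins were scarce. Kif22 had the highest level of them, 4.65 ± 1.37 FPKM over all samples, before Kif20a with 2.45 ± 0.308 and Kif4 with 1.23 ± 0.114. The spindle motor Kif11 stood at 0.757 ± 0.191 FPKM and Kif23, which acts in cytokinesis, at 0.431 ± 0.103. Kif14, Kif18b, Kif2b and Kif2c of this role had too few reads to test, with at most 14 counts in any sample and none at all for Kif2b. The other genes left untested were the dynein light chain Dynlrb2 (27 counts in total), Kif6 (55 counts) and Kif12 (1 count), with the pseudogenes Dynlt1-ps1 (12 counts), Kifc5c-ps (1 count), Kif4-ps and Kif22-ps (0 counts each).

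After SNA most of these motors stayed near their Sham level, and a minority moved by small steps. With both housings in one fit (6 Sham against 6 SNA samples, edgeR quasi-likelihood test with housing as a term), 12 of the 60 tested genes passed a Benjamini-Hochberg adjusted p-value of 0.05, which is 20%. Over all 16238 genes tested 22.4% passed, so the share among motors was near the background. Of the 12, 4 were higher (Kif22, Kif13b, Kif3b, Kif1c), against 11.4% higher among all genes. A further 8 were lower (Kif26b, Kif21b, Kif16b, Kifc2, Kif3a, Dctn1, Dync1i1, Kif18a), against 11% lower among all genes. The median absolute log2 fold change was 0.11 over the 60 and 0.12 over all genes. With both libraries that stood apart left out, 7 of 60 motors were called, against 17.9% of all genes. All 7 were among the 12: Kif22, Kif13b, Kif3b, Kif26b, Kif21b, Kif16b and Dctn1.

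**Figure D2:**
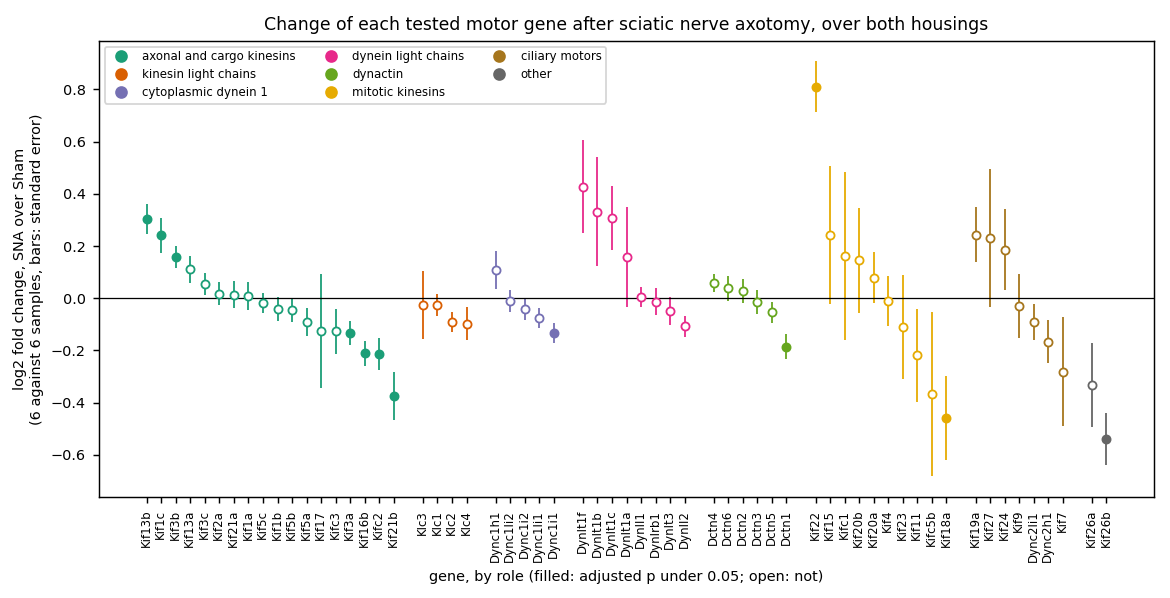
Log2 fold change of SNA over Sham with its standard error for the 60 tested motor genes, sorted by role, over both housings (6 against 6 samples). Filled points passed the adjusted threshold; Kif22 stands highest at 0.81 and Kif26b lowest at −0.54, while kinesin light chains, dynein light chains and ciliary motors hold no filled point.

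The axonal and cargo kinesins held 7 of the 12 calls, 3 higher and 4 lower among 18, with a median log2 fold change of −0.03. Kif13b, a kinesin-3 that carries phosphoinositide-rich vesicles and membrane proteins, was at 31.0, 32.9 and 32.2 CPM in SH Sham and 39.2, 38.0 and 43.4 CPM in SH SNA. In EE Sham it was at 30.6, 35.9 and 33.1 CPM and in EE + SNA at 38.0, 44.4 and 37.7 CPM. All 6 SNA samples lay above all 6 Sham samples. The log2 fold change was 0.30 ± 0.057 (SE, adjusted p = 0.000892). The share of Kif13b in the summed FPKM of Kif13a and Kif13b was 52.9% ± 1.09 in SH Sham and 56.7% ± 2.35 in SH SNA (SD, n = 3), and in these groups 1 SNA sample fell within the Sham range. Kif1c, another kinesin-3, active in secretory and dense-core vesicle traffic, ran from 43.8 to 50.9 CPM in SH Sham and from 49.4 to 59.2 CPM in SH SNA. It ran from 38.0 to 50.5 CPM in EE Sham and from 53.0 to 60.3 CPM in EE + SNA, so only the EE groups stood clear of each other. Over both housings it rose by a log2 fold change of 0.24 ± 0.068 (adjusted p = 0.0168), a call lost with the libraries that stood apart left out.

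The 2 partners of heterotrimeric kinesin-2 moved in opposite directions. Kif3b, which pairs with Kif3a to carry vesicles and ciliary proteins, was at 115, 112 and 117 CPM in SH Sham and at 134, 133 and 132 CPM in SH SNA. In EE Sham it was at 124, 106 and 115 CPM and in EE + SNA at 125, 124 and 121 CPM. The SH groups were far apart for their spread, whereas the EE groups overlapped. Over both housings the log2 fold change was 0.16 ± 0.042 (adjusted p = 0.0111).

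Kif3a was at 195, 179 and 195 CPM in SH Sham and at 175, 180 and 173 CPM in SH SNA. It was at 214, 180 and 181 CPM in EE Sham and at 171, 176 and 168 CPM in EE + SNA. One SH SNA sample lay just inside the Sham range, and the fall was small: log2 fold change −0.13 ± 0.046 (adjusted p = 0.0463), a call lost under 9 of 20 alternatives. As a share of the summed FPKM of Kif3a, Kif3b and Kif3c, Kif3b was 16.3% ± 0.151 in SH Sham and 18.5% ± 0.400 in SH SNA, and 16.2% ± 0.298 in EE Sham and 17.9% ± 0.199 in EE + SNA. The share of Kif3a was 42.4% ± 1.29 and 38.4% ± 0.0232 in the SH pair, and 42.3% ± 1.47 and 39.0% ± 0.257 in the EE pair (SD, n = 3 each). Neither share overlapped between Sham and SNA. Kif3c, the third kinesin-2 motor, had a log2 fold change of 0.05 ± 0.041 (adjusted p = 0.367).

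The cargo kinesins that fell were mostly low in level. Kif21b, a kinesin of dendrites and axons that also pauses microtubule growth, was at 14.1, 18.1 and 15.9 CPM in SH Sham and 13.7, 11.2 and 12.3 CPM in SH SNA. It was at 17.8, 14.9 and 12.02 CPM in EE Sham and 10.9, 11.6 and 11.5 CPM in EE + SNA. In each housing the SNA samples lay below the Sham samples, though EE Sham sample 3 was as low as the SH SNA group. Its log2 fold change of −0.38 ± 0.092 (adjusted p = 0.00653) was the largest of the axonal group.

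Kif16b, which moves early endosomes, was at 42.5, 41.6 and 44.5 CPM in SH Sham and 37.5, 38.2 and 34.9 CPM in SH SNA. In EE it went from 48.4, 41.6 and 46.8 CPM in Sham to 39.7, 40.9 and 37.8 CPM after SNA. All 6 SNA samples lay below all 6 Sham samples (log2 fold change −0.21 ± 0.048, adjusted p = 0.00402). Kifc2, a minus-end kinesin of neurons, ran from 34.0 to 37.4 CPM in SH Sham, from 27.5 to 32.7 CPM in SH SNA, from 35.6 to 39.4 CPM in EE Sham and from 28.4 to 34.9 CPM in EE + SNA. The groups of each housing did not overlap, and the log2 fold change was −0.21 ± 0.062 (adjusted p = 0.0186), a call lost under 3 of 20 alternatives. Exons of Kifc2 share 163 bases with Cyhr1 on the other strand.

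No change was detected in the Kif5 heavy chains, Kif1a, Kif1b or Kif2a. Kif5a was at 1152, 1195 and 1277 CPM in SH Sham and at 1014, 1202 and 1237 CPM in SH SNA, and its log2 fold change over both housings was −0.09 ± 0.053 (adjusted p = 0.246). Log2 fold changes were −0.05 ± 0.047 for Kif5b, −0.02 ± 0.038 for Kif5c, 0.01 ± 0.054 for Kif1a, −0.04 ± 0.046 for Kif1b and 0.02 ± 0.044 for Kif2a, a microtubule-depolymerising kinesin. Their adjusted p-values ran upward from 0.532, and Sham and SNA samples overlapped for each. The light chains Klc1 and Klc2 had log2 fold changes of −0.03 ± 0.043 and −0.09 ± 0.040, and 0 of the 4 light chains passed the adjusted threshold. The fall of sensory neuron markers in the same samples had a median log2 fold change of −0.21, and its part in the motor values was not tested.

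Of cytoplasmic dynein 1, only the intermediate chain Dync1i1, which ties the motor to dynactin, was called. It was at 181, 179 and 186 CPM in SH Sham and at 157, 164 and 175 CPM in SH SNA. In EE Sham it was at 176, 176 and 189 CPM and in EE + SNA at 167, 168 and 160 CPM. The 6 SNA samples lay below the 6 Sham samples, but narrowly: SH SNA sample 3 was at 174.8 CPM and EE Sham sample 1 at 175.5 CPM. The log2 fold change was −0.13 ± 0.038 (adjusted p = 0.0183), a call lost under 2 of 20 alternatives. Dync1i2, the partner of Dync1i1, had −0.04 ± 0.042. The light intermediate chains Dync1li1 and Dync1li2, which bind cargo adaptors, had −0.08 ± 0.038 and −0.01 ± 0.041. The heavy chain Dync1h1 had 0.11 ± 0.074 (adjusted p = 0.318). Its SH SNA samples were at 648, 755 and 973 CPM, and the third stood above all other 11 samples, which ended at 796 CPM.

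Dctn1, the largest dynactin subunit and the one that touches both dynein and the microtubule, was the only dynactin gene of 6 that was called. It was at 352, 376 and 411 CPM in SH Sham and at 294, 341 and 335 CPM in SH SNA, then at 347, 359 and 335 CPM in EE Sham and at 316, 325 and 305 CPM in EE + SNA. Within each housing the SNA samples lay below the Sham samples. The log2 fold change was −0.19 ± 0.048 (adjusted p = 0.00967). The other 5 dynactin subunits ran from −0.05 to 0.06.

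None of the 8 tested dynein light chains passed the adjusted threshold, and 3 passed the unadjusted one of 0.05, as did 34.7% of all genes. Dynll2, a hub light chain that also binds many proteins outside dynein, had −0.11 ± 0.041 (adjusted p = 0.0674), and Dynll1 had 0.0037 ± 0.038 (adjusted p = 0.959). The other 2 were Dynlt1f (0.43 ± 0.18, adjusted p = 0.0963) and Dynlt1c (0.31 ± 0.12, adjusted p = 0.0815), which together with Dynlt1a and Dynlt1b are near copies of each other. Their transcripts are 98.6% to 99.9% identical over 771 to 2550 aligned bases, so the split of reads among them is uncertain.

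**Figure D3:**
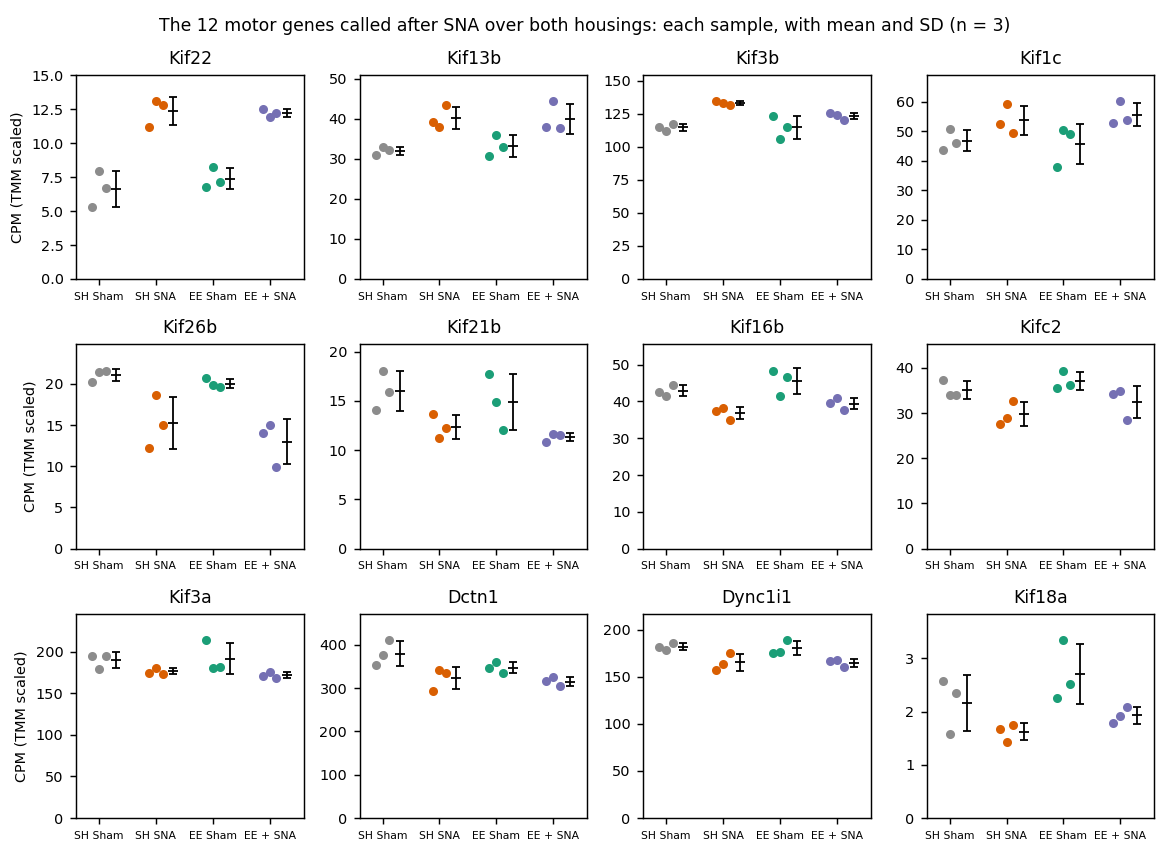
TMM-scaled CPM of the 12 called motor genes in each of the 12 samples, with the mean and SD of each group (n = 3) in black; every axis starts at 0. Kif22 separates all SNA samples (11.2 CPM and above) from all Sham samples (8.27 CPM and below), while Kif18a overlaps between groups.

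Kif22 changed more than any other of the tested motors. It encodes a chromokinesin that binds DNA and pushes chromosome arms toward the spindle equator, and it lies on chr7:127027729-127042471, minus strand, of GRCm38. Its level was 5.28, 7.96 and 6.69 CPM in SH Sham and 11.2, 13.1 and 12.8 CPM in SH SNA. In EE Sham it was 6.77, 8.27 and 7.15 CPM and in EE + SNA 12.5, 11.9 and 12.2 CPM. The 2 surgeries did not overlap in either housing, and both SNA groups had nearly the same mean, 12.4 ± 1.04 and 12.2 ± 0.313 CPM (SD, n = 3). Over both housings Kif22 rose by a log2 fold change of 0.81 ± 0.096, or 1.75-fold (adjusted p = 8.678e-06), and single samples held 75 to 274 reads of it. The call held under 20 of 20 alternatives, also with both libraries that stood apart left out. Its exons share 96 of 4903 bases with Gm31749 on the other strand.

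None of the other 9 tested mitotic kinesins was called higher. Kif11 had a log2 fold change of −0.22 ± 0.18 (adjusted p = 0.416) and Kif23 one of −0.11 ± 0.20 (adjusted p = 0.741). Kif18a, which aligns chromosomes by shortening microtubules, was called lower at −0.46 ± 0.16 (adjusted p = 0.0489). It rested on 17 to 44 counts a sample and the call was lost under 16 of 20 alternatives, with the highest adjusted p at 0.154. Its level ran from 1.58 to 2.58 CPM in SH Sham, from 1.44 to 1.75 CPM in SH SNA, from 2.26 to 3.34 CPM in EE Sham and from 1.78 to 2.10 CPM in EE + SNA. The SH groups overlapped. Kif4, another chromokinesin, had −0.01 ± 0.095 (adjusted p = 0.952). Counts of Kifc1 and Kifc5b, whose transcripts are 95.9% identical, are uncertain.

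Of 16 tested genes of proliferating cells, a list written to stand beside the mitotic kinesins, 4 were called (25%, against 22.4% of all genes). All 4 were higher after SNA: Prc1, which bundles the spindle midzone, Birc5 (survivin), Tpx2 and Aurka. In direction the list leaned upward, with 15 genes positive and 1 negative and a median log2 fold change of 0.52, against 0.0071 over all genes. The 2 libraries that stood apart entered this median, and their part in the lean was not tested. All 18 listed genes summed to 155 CPM in SH SNA sample 2, of which Ube2c held 94.5 CPM. The sum was 139 CPM in EE + SNA sample 3 and at most 82.2 CPM elsewhere. At an unadjusted p-value of 0.05, 8 of the 16 passed, all higher, against 34.7% of all genes. Prc1 was at 4.61 to 5.81 CPM in SH Sham and at 9.89 to 11.2 CPM in SH SNA, and it ran from 5.44 to 6.95 CPM in EE Sham and from 7.57 to 10.5 CPM in EE + SNA. Its log2 fold change was 0.78 ± 0.11 (adjusted p = 8.143e-05), close to that of Kif22. Mki67, the usual marker of cycling cells, had 0.60 ± 0.34 (adjusted p = 0.223). EE + SNA sample 3 held 21.9 CPM of Mki67 against at most 10.9 CPM elsewhere. Every gene of the list but Prc1, Bub1 and Ube2c was highest there, as was Kif11 at 5.48 CPM. Kif22 was not, at 12.2 CPM within a group of 11.9 to 12.5 CPM.

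**Figure D4:**
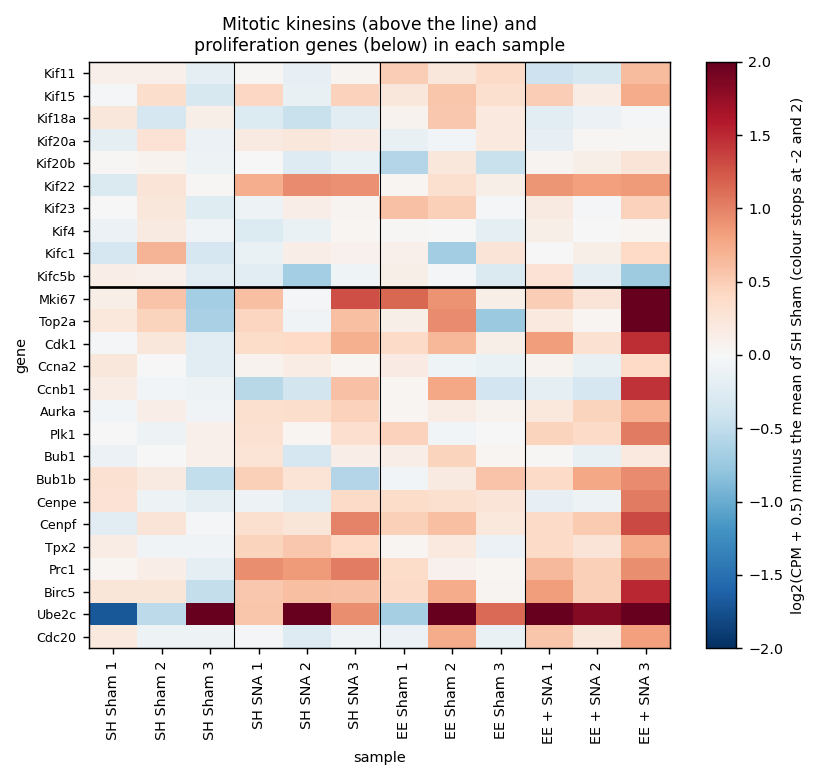
Level of the 10 tested mitotic kinesins (above the line) and 16 proliferation genes (below) in each sample, as log2(CPM + 0.5) minus the mean of SH Sham; colours stop at −2 and 2. Kif22 and Prc1 are raised in all 6 SNA samples, while Mki67 and Top2a are raised most in EE + SNA sample 3.

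The mitotic kinesins also differed from the transport motors in the sequence around their transcription starts. The cell cycle genes homology region (CHR), a short element of promoters that are silenced in resting cells, was searched as TTTGAA on both strands, from 250 bases before to 50 bases after each RefSeq start on GRCm38.p6. Promoters were found for 44 of the 60 tested genes. These 44 genes have 51 promoters, since 7 of them have 2, and a gene counted as holding a match when any of its promoters did. Of mitotic kinesins 8 of 9 genes held a match (88.9%), of the other motors 4 of 35 (11.4%) and of all 27025 genes with a promoter 20.2%. Per promoter the share was 17.9% of 32851. Kif18a was the mitotic kinesin without one. A match is a description of these letters and not a shown binding site. The 10 tested motors with a match within 50 bases of the start are shown by 30 bases each, 5′ to 3′ on the gene's strand, with the match in capitals (TTTGAA, or TTCAAA where it lies on the other strand), first the mitotic kinesins and then Kif26b and Kif1a.
Kif22 (chr7:127042420-127042449, minus strand): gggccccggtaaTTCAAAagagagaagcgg
Kif11 (chr19:37376351-37376380, plus strand): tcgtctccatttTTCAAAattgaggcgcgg
Kif15 (chr9:122951050-122951079, plus strand): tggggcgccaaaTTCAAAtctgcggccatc
Kif23 (chr9:61946780-61946809, minus strand): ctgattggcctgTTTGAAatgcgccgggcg
Kif20b (chr19:34922356-34922385, plus strand): ccgccattgTTTGAATTTGAAaaccgggag
Kif4 (chrX:100626072-100626101, plus strand): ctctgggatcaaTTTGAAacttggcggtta
Kifc1 (chr17:33890615-33890644, minus strand): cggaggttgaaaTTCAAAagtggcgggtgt
Kifc5b (chr17:26917108-26917137, plus strand): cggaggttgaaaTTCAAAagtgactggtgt
Kif26b (chr1:178529104-178529133, plus strand): tgggagaatttcTTTGAActcagttagcga
Kif1a (chr1:93082507-93082536, minus strand): tttgacagcctcTTTGAAcattgctcctaa

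In Kif22 the match began 17 bases before the start, and in Kif11 and Kif15 it began 19 bases before. Kif20b carried 2 matches end to end. The near copies Kifc1 and Kifc5b shared the same flank before the match. Of the 8 tested mitotic kinesins with a match, Kif22 alone was called higher after SNA. The cyclic AMP response element, TGACGTCA, was found in promoters of 5 of the 44 genes (11.4%), Kif5c, Kif17, Klc1, Dctn3 and Kif18a, and of 2.03% of all genes. None of these 5 held a CHR match. The AP-1 site TGANTCA was found for 0 of the 44 genes and for 8.97% of all genes. Both of these read the same on either strand, and none of the 5 motors with the response element except Kif18a was called after SNA.

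Kif26b, an atypical kinesin thought to lack motor activity, which acts in cell adhesion and organ development, had the largest fall of the tested motors. It lies on chr1:178529125-178939200, plus strand. Its level was 20.2, 21.4 and 21.6 CPM in SH Sham and 12.2, 18.6 and 15.0 CPM in SH SNA. It was 20.7, 19.9 and 19.6 CPM in EE Sham and 14.1, 15.0 and 9.91 CPM in EE + SNA. All 6 SNA samples lay below all 6 Sham samples (log2 fold change −0.54 ± 0.10, adjusted p = 0.000779). Gm16564 on the other strand overlaps 909 of its 14696 exon bases. Its relative Kif26a, which restrains growth factor signalling in neurons, had −0.33 ± 0.16 (adjusted p = 0.155).

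Among ciliary motors 0 of 7 tested genes were called after SNA over both housings. Their log2 fold changes ran from −0.28 for Kif7, a Hedgehog pathway kinesin, to 0.24 for Kif19a, which limits the length of cilia. Dync2h1, the heavy chain of the dynein that returns cargo from the ciliary tip, had −0.17 ± 0.083 (adjusted p = 0.168).

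Within each housing alone, with 3 against 3 samples, fewer motors passed. In SH, SNA called 4 of 60 against 11.2% of all genes: Kif22 (log2 fold change 0.90 ± 0.15, adjusted p = 0.00178), Kif13b (0.33 ± 0.076, 0.0136) and Kif3b (0.22 ± 0.050, 0.0140) were higher and Kif26b (−0.47 ± 0.13, 0.0362) was lower. In EE, SNA called 2 of 60 against 4.83% of all genes, Kif22 (0.71 ± 0.12, adjusted p = 0.00621) and Kif26b (−0.62 ± 0.14, 0.0246). At an unadjusted p-value of 0.05, the threshold used in the study, 12 of 60 passed in SH, against 25.2% of all genes, and 9 of 60 in EE, against 20.6%. Kif13b in EE had 0.27 ± 0.091 (adjusted p = 0.118) and Kif3b in EE had 0.10 ± 0.069 (adjusted p = 0.463).

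Whether SNA acted differently in the 2 housings was tested by the interaction. No motor was called in edgeR or in DESeq2, as no gene was in edgeR (0 of 16238, 0%), and 1 motor passed the unadjusted threshold against 2.61% of all genes. For Kif3b the interaction was −0.11 ± 0.084 (adjusted p = 0.9999), and for Kif22 it was −0.18 ± 0.19 (adjusted p = 0.9999). The 1 motor was Dync2h1, named after its values were seen. It was at 17.9, 18.5 and 20.1 CPM in SH SNA and at 14.0, 15.4 and 15.2 CPM in EE + SNA, with 16.5 to 21.1 CPM in the 6 Sham samples. The 3 EE + SNA samples lay below all the others. The interaction was −0.38 ± 0.15 (adjusted p = 0.9999).

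EE + SNA against SH SNA, the comparison of the combined treatment with injury alone, likewise gave 0 calls among motors and 0 among all genes (0%). At the unadjusted threshold 1 motor passed, against 4.1% of all genes, and it was again Dync2h1 (−0.34 ± 0.091, adjusted p = 0.989). DESeq2 gave 0 motor calls as well, with 2 motors at the unadjusted threshold. Kif3b was lower in all 3 EE + SNA samples than in all 3 SH SNA samples, by −0.11 ± 0.051 (adjusted p = 0.989).

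Housing alone, EE Sham against SH Sham, called 0 motors in edgeR and in DESeq2, and 1 of 16238 genes (0.00616%). At the unadjusted threshold 2 motors passed in edgeR, against 2.97% of all genes, and 0 in DESeq2. They were Kif11, higher in EE Sham at 4.96, 4.02 and 4.55 CPM against 3.64, 3.66 and 2.87 CPM (0.40 ± 0.18, adjusted p = 0.9999), and Klc3, a light chain best known from sperm, with −0.43 ± 0.19 (adjusted p = 0.9999). The samples of Klc3 overlapped. Housing and any separate preparation of the EE Sham samples cannot be told apart. EE Sham was also the control of EE + SNA and entered the fit over both housings and the interaction. There a separate preparation cannot be fully told apart from surgery either. SH SNA against SH Sham was fitted without these samples.

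EE + SNA against SH Sham, the combined treatment with the sham-operated control in standard housing, called 6 motors against 12.5% of all genes. Kif22 (0.89 ± 0.14, adjusted p = 0.00183), Kif13b (0.33 ± 0.078, 0.0156) and Kif1c (0.25 ± 0.076, 0.0458) were higher, and the call of Kif1c was lost under 10 of 15 alternatives. Kif26b (−0.68 ± 0.13, 0.00493), Kif21b (−0.49 ± 0.11, 0.0130) and Dctn1 (−0.27 ± 0.065, 0.0177) were lower. This comparison shares its control samples with that of SH SNA, in which Kif1c, Kif21b and Dctn1 had 0.20 ± 0.082, −0.36 ± 0.12 and −0.23 ± 0.072 with adjusted p-values of 0.151, 0.0734 and 0.0611.

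Motors act through adaptors that join them to cargo or switch them on, and 36 such genes were listed beside the motors. Of the 35 tested, 7 were called over both housings (20%, near the 22.4% of all genes), 6 higher and 1 lower. The clearest was Ndel1, which with Nde1 and Lis1 loads and regulates dynein. It ran from 176 to 191 CPM in the 6 Sham samples and from 219 to 242 CPM in the 6 SNA samples, with no overlap (log2 fold change 0.33 ± 0.038, adjusted p = 7.288e-06). Nde1 rose by 0.30 ± 0.083 (adjusted p = 0.0148). Lis1 (gene name Pafah1b1) was not called, at 1228 to 1508 CPM in the Sham samples and 1211 to 1316 CPM in the SNA samples.

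Of the lysosome adaptors, Arl8a, the GTPase that recruits kinesin to lysosomes, rose by 0.19 ± 0.039 (adjusted p = 0.00210). All its SNA samples lay above all its Sham samples. Arl8b, also on the list, was not called, at 200 to 226 CPM in Sham and 194 to 212 CPM in SNA samples. Plekhm2, which links Arl8 to conventional kinesin, rose by 0.20 ± 0.052 (adjusted p = 0.0102). Bicd2, an activating adaptor of dynein, and Madd, which couples vesicles to Kif1a and Kif1b, rose by 0.14 ± 0.046 and 0.13 ± 0.042 (adjusted p = 0.0297 and 0.0348). Snapin, which attaches dynein to late endosomes, fell by 0.12 on the log2 scale (SE 0.040, adjusted p = 0.0329).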

How the data were processed

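The labels give 12 samples of 4 groups. The deposited counts are whole reads per gene name that the authors aligned to mm10 with TopHat2 2.0.12 and counted with HTSeq; the deposited FPKM are the authors' values per gene length and library total, used here for levels between genes, for the shares of subunits within a family and for one alternative test. The HTSeq version differs between the paper and the submitters' processing notes, and the strand setting is not given in the sources used here. Reads that HTSeq left outside genes (46.7% to 47.6%), as not unique (8.49% to 9.28%) or as ambiguous (0.314% to 0.370%) were left out.

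In R 4.3.3, counts were filtered (filterByExpr, minimum count 10, minimum total 15), scaled by TMM (factors 0.978 to 1.02; CPM are so scaled) and tested in edgeR 4.0.16 (quasi-likelihood F test, two-sided, adjusted over 16238 genes). The standard error (SE) of a log2 fold change is its absolute value divided by the square root of the F statistic. Comparisons of 2 groups used their 6 samples. Scripts were tested on simulated data. The members, roles and lists were chosen with earlier results of these data known. Named are motors past the adjusted threshold in any comparison, 22 core motors whatever their values, up to 8 called adaptors, and Atf3. The labels do not say which samples share a preparation. Correlations used deviations from group means, which rest on 3 samples each. Same-numbered samples of SH Sham and EE Sham correlated (r from 0.111 to 0.331), while those of different number had r from −0.332 to 0.194. For SH SNA and EE + SNA the ranges stood apart, 0.0573 to 0.126 for the same number and −0.123 to 0.0403 for different numbers. Between Sham and SNA they overlapped, in SH with −0.235 to 0.236 and −0.314 to 0.404. So the correlations do not settle whether the numbers pair the samples. Numbers were taken as pairs only in the replicate block, one of the alternatives. Replicates differed beyond sampling noise. Genes were placed with GENCODE M21 (71 of 71 found). Alternatives were a likelihood ratio test, DESeq2 1.42.0, library size scaling, no filter, a stricter filter, limma 3.58.1 on log2(FPKM + 1), one fit of all 12 samples, the replicate block, and each sample left out.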

Additional observations from a re-analysis of the deposited data

How the results depend on the processing

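Counts of called motors were mostly stable. Without a filter they became 7 of 68 (was 4) in SH SNA against SH Sham, beside 10.2% of all genes. In EE + SNA against EE Sham they became 6 of 66 (was 2), beside 6.99%. Over both housings they became 13 of 68 (6 higher, 7 lower), beside 15.6%. With limma on FPKM they became 1 of 60 in EE + SNA against EE Sham, beside 2.97% of all genes. In EE + SNA against SH Sham limma gave 3 of 60 (was 6), beside 8.82%. The cause was not tested. With both libraries that stood apart left out, a choice made after seeing the data, 7 instead of 12 were called over both housings, from 10 samples. The share of all genes called was 17.9% in that fit and 22.4% in the main one. With each sample left out in turn the counts ran from 2 to 4 for SH SNA against SH Sham. The count was 2 without SH Sham sample 2 (8.28% of all genes called) or SH SNA sample 1 (7.43%). For EE + SNA against EE Sham they ran from 1 to 3. The count was 1 without EE Sham sample 1 (2.96%), EE Sham sample 3 (2.22%) or EE + SNA sample 1 (2.32%). For EE + SNA against SH Sham they ran from 3 to 5, with 3 without EE + SNA sample 1 (7.19%). Over both housings they ran from 9 to 12, with 9 without SH Sham sample 1 (18.8%) or SH SNA sample 1 (18.2%). They stayed at 0 for the other 3 comparisons. The replicate block gave 12 calls over both housings (24.1% of all genes), 5 in SH (11.8%) and 2 in EE (5.46%). It changed no count by more than 1.5 times. In EE Sham against SH Sham it called 0 motors and 29 of 16238 genes (0.179%). In the 4 comparisons with called motors, 0 of them changed direction under any alternative.

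Uncalled motors near 0 changed sign over both housings: Dynll1 had log2 fold changes of −0.0069 (library size), −0.0010 (no filter) and −0.0078 (limma on FPKM), and −0.016 to 0.018 with 1 sample left out; Kif1a had −0.0020 (limma on FPKM) and −0.030 to 0.032 with 1 sample left out. With both libraries left out, Dync1li2 had 0.014 and Kif2a −0.0040, and with 1 sample left out Dync1li2 ran from −0.025 to 0.0089, Kif2a from −0.0055 to 0.038 and Kif5c from −0.031 to 0.0010. Depth limits the mitotic and ciliary genes, and pools of 2 mice hide the spread between animals.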
